A study of Mus musculus with 32 samples.

Results

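Oxidative phosphorylation is the last stage of cellular respiration, and its genes are split over 2 genomes. The 94 genes described here were chosen by symbol from the 55487 genes of both deposited tables: the mitochondrially encoded subunits (mt-Nd, mt-Co, mt-Cytb and mt-Atp genes) and the nuclear Nduf, Sdh, Uqcr, Cox and Atp5 subunit genes of the protein-coding class, with Cox7a1 left out. The rule reads symbols alone, but this group of genes was taken up with earlier results of these data known. Mitochondrial DNA holds 13 of them, 7 of complex I, 1 of complex III, 3 of complex IV and 2 of complex V. The other 81 are nuclear, with 36 in complex I, 4 in complex II, 8 in complex III, 13 in complex IV, 18 in complex V and 2, Cox7a2l and Ndufa4l2, that were kept apart from the complexes.

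Complex I (NADH dehydrogenase) and complex II (succinate dehydrogenase) pass electrons to ubiquinone, complex III (cytochrome bc1) passes them on to cytochrome c, and complex IV (cytochrome c oxidase) hands them to oxygen. The proton gradient that this builds drives complex V, the ATP synthase. Every complex but complex II mixes subunits of both genomes, and the mitochondrial genes are transcribed within the organelle as long transcripts that are then processed into single RNAs. In muscle, quiescent satellite cells are poor in mitochondria, and mitochondrial content rises as they activate, divide and differentiate.

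RNA was sequenced from satellite cells, which are muscle's resident stem cells, and from fibro-adipogenic progenitors (FAPs), its interstitial mesenchymal progenitors, sorted from the supraspinatus, a rotator cuff muscle, of wild-type (WT) male C57BL/6J mice aged 12 weeks. All muscles had been injured with cardiotoxin, a venom toxin that destroys muscle fibres. The BAT groups then received interscapular brown adipose tissue from a mouse aged 3 weeks, and the control (CTL) groups had the injury alone. The 8 groups are satellite cells and FAPs, BAT and control, at day 3 or day 7, with 4 libraries each, and per the labels the libraries are paired within a mouse, 4 mice on each day. Both cell types were gated as negative for CD45 and CD31 and positive for Sca1, and integrin alpha 7 separated the positive satellite cells from the negative FAPs. No uninjured muscle and no muscle with a sham graft was analysed here. The days differ in their mice and in their deposited table, so a difference between days cannot be told apart from these.

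Library totals ran from 19776741 to 46378918 counts (median 25664860). Levels are given as CPM, the count scaled to a common library total, and a gene at 0 counts in a library may have had up to 0.0647 to 0.152 CPM (3 counts). The satellite cell markers Pax7, Myf5, Myod1, Itga7 and Cdh15 summed to 1143 to 1959 CPM in control satellite cells and 3.49 to 6.28 CPM in control FAPs at day 3, and the FAP markers to 14.03 to 189.7 and 4651 to 5742 CPM. The gate of both cell types is labelled Sca1+, yet its gene Ly6a was at 2.38 to 42.8 CPM over all satellite cell libraries and at 426 to 1162 CPM over all FAP libraries. In 4 libraries, all of day 7 replicate 3 and of 1 mouse, Xist was at 163 to 355 CPM against at most 0.161 CPM elsewhere, which goes against the male label given to all mice. At day 3, 3 libraries were rich in macrophage markers: control satellite cells replicate 3, BAT satellite cells replicate 4 and BAT FAPs replicate 1. The BAT libraries among them came from 1 mouse. All 3 had 1546 to 4280.0 summed CPM of 12 macrophage markers, against 5.15 to 161 CPM in the other 29. Where leaving out these libraries, or the mouse with Xist, changed a count of calls by over 1.5 times, the value without them is given beside the result or with the other alternatives at the end. In sorted bulk RNA, fewer cells of a type and less RNA per cell cannot be told apart.

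Levels below are CPM of the library total. Changes are log2 values with their standard error (SE) from edgeR fits on TMM-scaled totals over all genes that passed a filter on low counts, and a gene is called higher or lower where its Benjamini-Hochberg adjusted p is under 0.05. The scale matters where cell types or days differ, because TMM centres the median gene. On plain library totals the median of all genes tested moved from 0.05 to 0.47 for satellite cells against FAPs in day 7 controls, and from 0.03 to 0.39 for day 7 against day 3 in control satellite cells. The calls higher then made up 74.5% in place of 49.8%, and 68.7% in place of 49.9%. Distances of the members from the median gene, and the ratio of the genomes, barely depend on this choice and are therefore given too. Of the 94 members, Cox7b2 (4 counts over all libraries) and a readthrough locus also named Atp5o (0 counts) could not be tested anywhere, and Cox6a2 passed the filter in only some comparisons.

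Satellite cells held more of their RNA in these genes than FAPs, and in both cell types the nuclear share was lower at day 7 than at day 3. In control satellite cells the mitochondrial genes made up 3.22% of the counts at day 3 and 2.51% at day 7, and the nuclear genes 2.53% and 1.47%. In control FAPs the mitochondrial shares were 1.66% and 1.69%, and the nuclear shares 1.11% and 0.726%. In control satellite cells the 81 nuclear genes summed to 25747, 28036, 23532 and 23753 CPM at day 3 and to 15240.2, 12556, 16145 and 14931 CPM at day 7, for replicates 1 to 4 in turn. In control FAPs the sums were 10474, 11759, 11035 and 11279 CPM at day 3 and 7613, 6022, 7668 and 7726 CPM at day 7. All day 3 libraries lay above all day 7 libraries in both cell types. The 13 mitochondrial genes behaved otherwise. Their sum in control satellite cells was 32499, 39151, 30121 and 27163 CPM at day 3 and 23181, 24381, 28704 and 23954 CPM at day 7, which overlap. In control FAPs it was 15254, 16974, 18820.3 and 15379 CPM at day 3 and 20421, 12459.6, 17139 and 17651 CPM at day 7, and there the day 7 range enclosed the day 3 range. With BAT, the mitochondrial sum was 29664 ± 5446 CPM (SD, n = 4) at day 3 and 30239 ± 2869.7 CPM at day 7 in satellite cells, and 16346 ± 3202 and 16558 ± 983 CPM in FAPs.

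**Figure D1:**
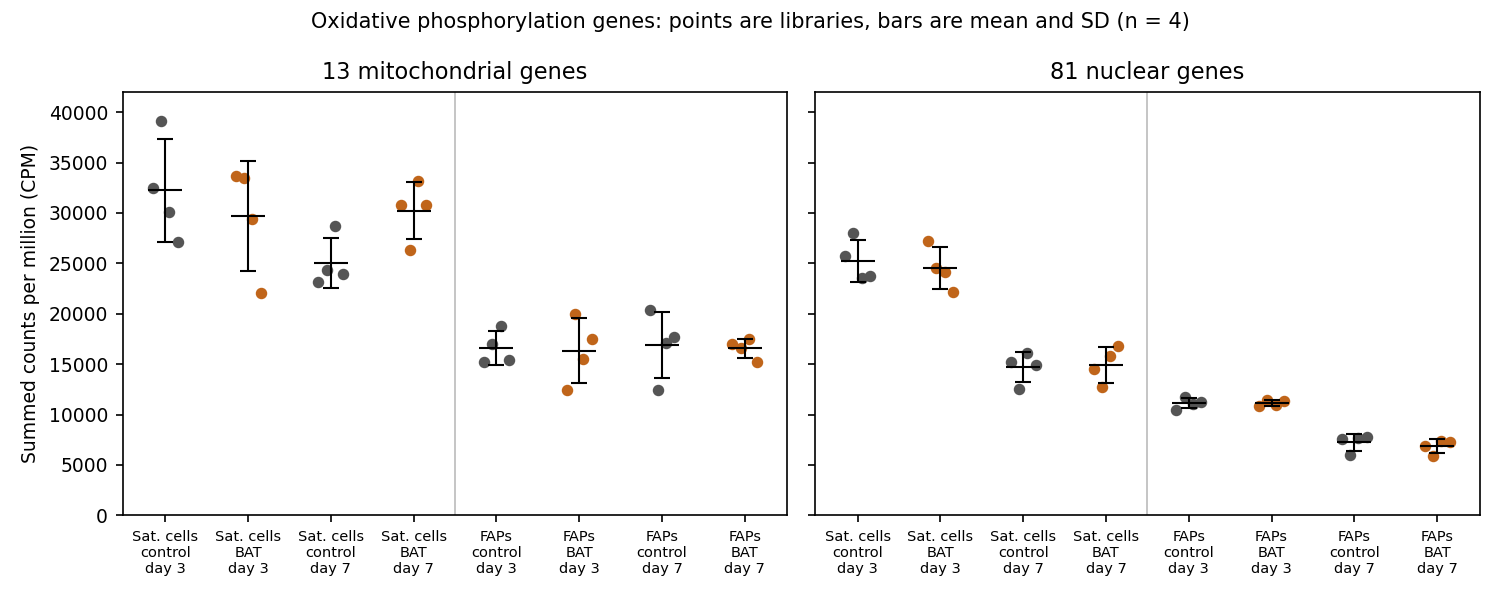
Summed CPM (y axis, from 0) of the 13 mitochondrial genes (left) and the 81 nuclear genes (right) in each library of the 8 groups, grey for control and orange for BAT, with the mean and SD (n = 4). The nuclear sum is lower at day 7 in every pair of groups, while the mitochondrial sum of FAPs has means between 16346 and 16918 CPM in all 4 groups.

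The balance of the genomes was therefore not the same on both days. The log2 ratio of summed mitochondrial to summed nuclear counts was 0.34, 0.48, 0.36 and 0.19 in control satellite cells at day 3 and 0.61, 0.96, 0.83 and 0.68 at day 7, with no overlap. In control FAPs it was 0.54, 0.53, 0.77 and 0.45 at day 3 and 1.42, 1.05, 1.16 and 1.19 at day 7, again with no overlap. With BAT the means were 0.26 ± 0.19 and 1.02 ± 0.10 in satellite cells and 0.53 ± 0.26 and 1.27 ± 0.17 in FAPs (SD, n = 4), and the days did not overlap there either. The day 7 minus day 3 differences were 0.43 (control) and 0.76 (BAT) in satellite cells and 0.63 and 0.74 in FAPs. With the median gene of each genome in place of the sum the differences were larger, at 1.05, 1.28, 1.20 and 1.24 in the same order. Within every mouse the ratio was lower in satellite cells than in FAPs: by 0.23 ± 0.11 (SD over 4 mice) in day 3 controls, 0.44 ± 0.31 in day 7 controls, 0.27 ± 0.19 at day 3 with BAT and 0.25 ± 0.12 at day 7 with BAT. Without the macrophage-rich libraries the day 3 BAT means were 0.35 in satellite cells and 0.64 in FAPs (n = 3 each), and the day 3 control mean in satellite cells was 0.34 (n = 3). Both mitochondrial rRNAs together were at 10530.2 ± 1440.0 CPM at day 3 and 12466 ± 1055 CPM at day 7 in control satellite cells, and at 7003 ± 1299.9 and 10441 ± 1953 CPM in control FAPs.

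**Figure D2:**
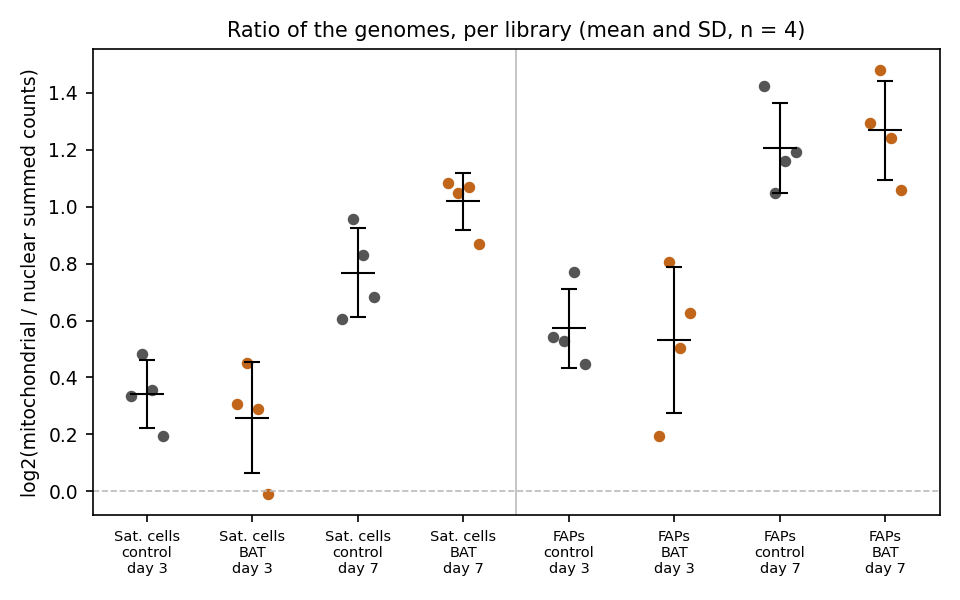
Log2 of the summed mitochondrial over the summed nuclear counts (y axis) in each library, with the mean and SD of each group (n = 4), grey for control and orange for BAT. Every day 7 group lies above its day 3 group, and FAPs lie above satellite cells on the same day and treatment by their means.

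Per kilobase of exon, the highest mitochondrial RNAs stood far above the nuclear ones. The length used is the union of a gene's annotated exons, such as 4237 bases for Atp5b and 1908 for Atp5c1. This union can be longer than 1 messenger RNA, so ranks on this scale depend on the annotation. In day 3 control satellite cells mt-Co3, a core subunit of complex IV, had 10795 ± 2164 CPM per kb (SD, n = 4), mt-Atp6 of complex V 4538 ± 472, mt-Nd1 of complex I 3720.2 ± 513 and mt-Cytb, the only complex III subunit of this genome, 3377 ± 757. The lowest of the 13 was mt-Nd6, the only one on the other strand, with 218 ± 33.9 CPM per kb. Among nuclear members the highest in each complex were Cox6a1 of complex IV with 856 ± 48.5 CPM per kb, Uqcr10 of complex III with 795 ± 109.5, Atp5c1 of complex V with 518 ± 77.7, Sdhd of complex II with 481 ± 74.3 and Ndufb9 of complex I with 405 ± 67.8. In day 3 control FAPs mt-Co3 was again first with 6611 ± 835 CPM per kb. Cox6a1 (488 ± 33.0), Uqcr10 (217 ± 23.9), Atp5c1 (219.8 ± 14.9) and Sdhd (146 ± 9.88) kept first place in their complexes there, and Ndufa2 (209 ± 21.3) led complex I.

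Mean levels with their SD of the reference genes in all 8 groups are given in 1 order: satellite cells at day 3 (control, BAT) and day 7 (control, BAT), then FAPs likewise, with n = 4 each. mt-Co1 averaged 6211 ± 966, 5566 ± 1016, 5157 ± 709, 6534 ± 447, 3615 ± 414, 3562 ± 639.7, 3815 ± 609 and 3839 ± 446 CPM. mt-Cytb averaged 3863 ± 866, 3574 ± 942, 3639 ± 392, 4195 ± 636, 1937 ± 261, 1924 ± 502, 2479 ± 729.6 and 2328 ± 317 CPM. mt-Atp6 averaged 3091 ± 322, 3036 ± 634, 2324 ± 394, 2841 ± 476, 1437 ± 170.2, 1412 ± 360.0, 1524 ± 426 and 1429 ± 247 CPM. In all 3 the 4 satellite cell means were above the 4 FAP means. Ndufs1 averaged 218 ± 17.1, 209 ± 15.1, 158 ± 35.5, 174 ± 25.3, 87.5 ± 9.33, 87.6 ± 3.85, 58.8 ± 11.9 and 56.4 ± 15.04 CPM. Uqcrfs1 averaged 407 ± 32.9, 365 ± 22.3, 234 ± 44.3, 243 ± 67.3, 106 ± 4.16, 104 ± 11.2, 80.8 ± 15.1 and 77.8 ± 14.5 CPM. Cox5a averaged 404 ± 24.6, 361 ± 21.3, 190.0 ± 10.2, 171 ± 14.01, 107 ± 12.6, 108 ± 10.1, 62.1 ± 6.63 and 60.6 ± 2.66 CPM. In these nuclear genes each day 7 mean was below the day 3 mean of the same cells and treatment. mt-Nd6 averaged 113 ± 17.6, 116 ± 26.6, 132 ± 30.1, 153 ± 37.9, 68.7 ± 9.22, 69.5 ± 19.5, 83.0 ± 27.3 and 78.0 ± 18.2 CPM, and Sdha 360.2 ± 24.0, 389.6 ± 43.2, 339.7 ± 32.5, 319 ± 50.4, 220.3 ± 36.7, 237 ± 34.0, 151 ± 13.5 and 169 ± 5.18 CPM. Atp5b averaged 1721 ± 22.3, 1681 ± 123, 1209 ± 127, 1226 ± 172, 625 ± 42.8, 737 ± 223, 435 ± 89.7 and 426 ± 59.7 CPM.

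Between day 3 and day 7 nearly all nuclear subunits fell in control satellite cells. Of 79 tested, 74 were called lower and 3 higher, where 29.8% of all genes tested were called lower and 29.7% higher. Their median log2 change was -1.15, against 0.03 for all genes tested. With BAT, 74 of 79 were lower and 4 higher (24.4% and 28.5% of all genes), with a median of -1.02 against 0.11, and on plain totals calls higher made up 69.0% of all calls in place of 53.9%. The distance from the median gene was -1.19 in controls and -1.13 with BAT, and -1.17 and -1.11 on plain totals. Cell cycle markers, a list of 16 that includes Mki67 and Top2a, summed to 2764 to 3204 CPM at day 3 and 1793 to 2667 CPM at day 7 in the same control cells, and 14 of 16 were called lower. The 11 markers of muscle fibres summed to 376 to 881 CPM at day 3 and to 2447 to 5414 CPM at day 7, higher in every day 7 library. The part of either in the fall of the subunits was not tested.

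Every complex took part in control satellite cells. In complex I, 35 of 36 nuclear subunits fell (median -1.11), in complex II 4 of 4 (-1.08), in complex III 8 of 8 (-1.16), in complex IV 10 of 12 (-1.41) and in complex V 17 of 17 (-1.33). Within complex V the subunits of the membrane part and stalk had a median of -1.48 (12 genes) and those of the catalytic head -0.96 (5 genes). Within complex I the accessory subunits had a median of -1.13 (29 genes) and the 7 nuclear core subunits -0.89. These differences between groups of subunits are descriptions and were not tested.

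The largest fall was that of Atp5g1, which encodes the ring-forming c subunit of the ATP synthase. It was at 241, 245, 230.4 and 228 CPM in the day 3 control satellite cells and at 79.4, 67.3, 77.2 and 79.2 CPM at day 7, a log2 change of -2.003 ± 0.11 (edgeR, adjusted p = 2e-06). Every day 3 library was above every day 7 library by a wide gap. Its paralogue Atp5g3, which encodes the same mature protein, had a log2 change of -1.75 ± 0.10 (adjusted p = 2.85e-06). Ndufa4, a subunit first assigned to complex I and now placed in complex IV, was at 469, 561, 378 and 376 CPM at day 3 and 168, 108, 170.4 and 175 CPM at day 7 (-1.90 ± 0.20, adjusted p = 3.82e-05). Again the days did not overlap. Atp5md, a small subunit of the membrane part (-1.74 ± 0.19), and Sdhd, a membrane anchor of succinate dehydrogenase (-1.73 ± 0.18), completed the 5 largest falls. With BAT the largest falls were those of Atp5g1 (-1.93 ± 0.18), Ndufa4 (-1.71 ± 0.23), Atp5g3 (-1.55 ± 0.16), Sdhd (-1.51 ± 0.18) and Atp5k (-1.48 ± 0.19), another small subunit of the membrane part.

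Reference subunits, 1 per complex and chosen for their roles, fell to different extents. Ndufs1, the largest core subunit of complex I, went from 222, 239, 197 and 215 CPM to 162, 113, 200.1 and 156 CPM in control satellite cells (-0.84 ± 0.16, adjusted p = 0.00142), with the highest day 7 library inside the day 3 range. Sdha, the flavoprotein of complex II, was at 338, 356, 353 and 394 CPM and 349, 314, 314 and 382 CPM, which overlap as shares of the library (-0.44 ± 0.10 on the TMM scale, adjusted p = 0.00414). Atp5b, the catalytic beta subunit of the ATP synthase, was at 1712, 1706, 1711 and 1754 CPM and 1174, 1153, 1395 and 1113 CPM without overlap (-0.87 ± 0.12, adjusted p = 0.00018). Uqcrfs1, the Rieske iron-sulfur protein of complex III, had a log2 change of -1.17 ± 0.15 and Cox5a, a complex IV subunit, of -1.44 ± 0.10. With BAT the log2 changes were -0.53 ± 0.15 for Ndufs1, -0.55 ± 0.15 for Sdha, -0.85 ± 0.19 for Uqcrfs1, -1.34 ± 0.13 for Cox5a and -0.72 ± 0.14 for Atp5b, all called lower.

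**Figure D3:**
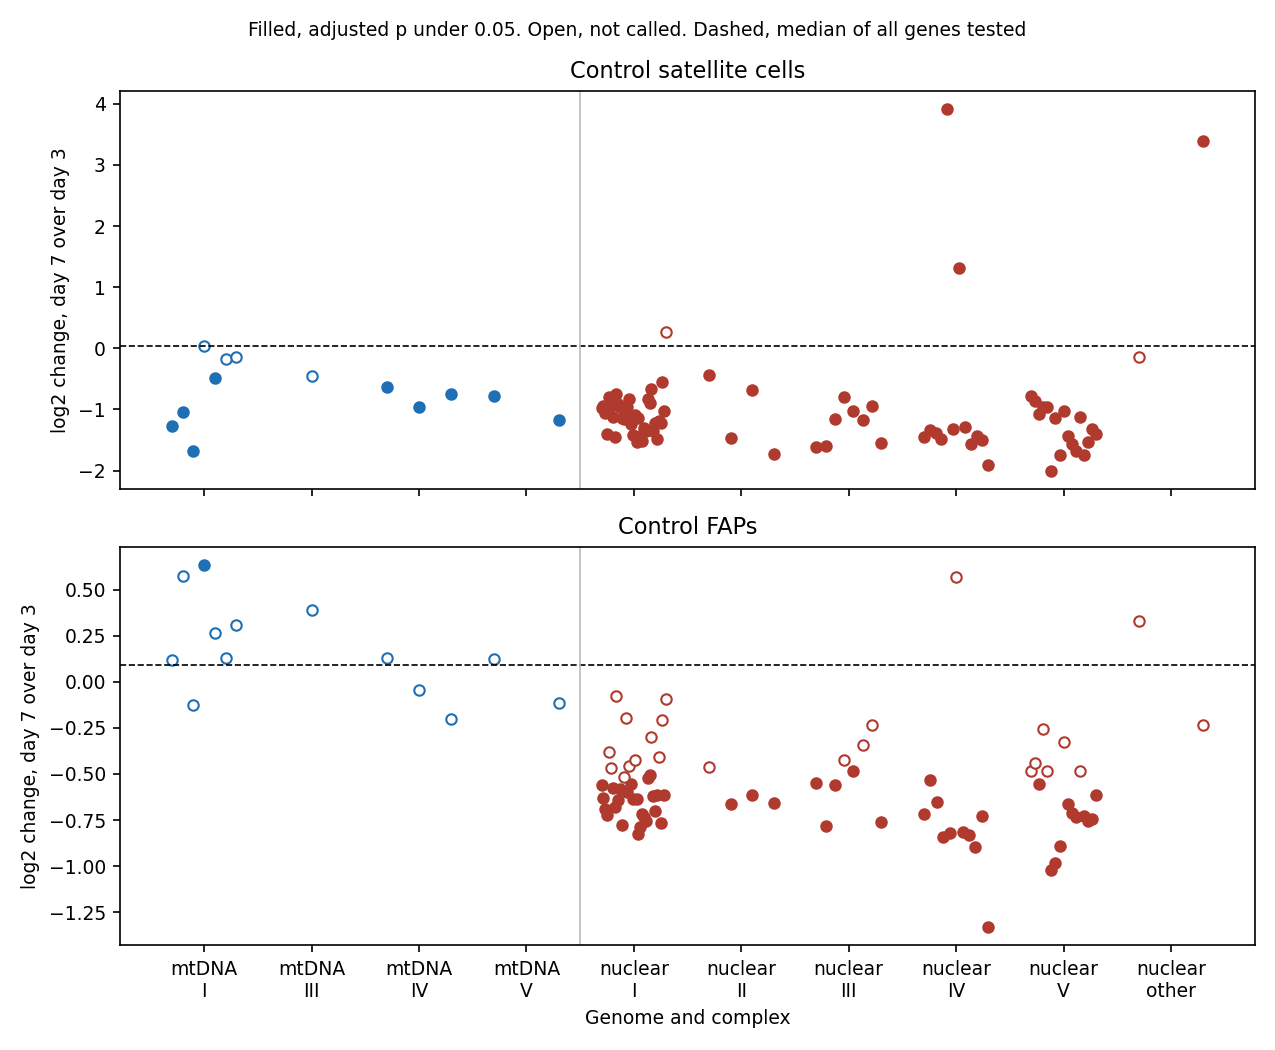
Log2 change from day 3 to day 7 (y axis, with a different range in each panel) of every tested member in control satellite cells (top) and control FAPs (bottom), by genome and complex on the x axis, filled where called. In satellite cells the nuclear members centre on -1.15 with Cox6a2, Cox6b2 and Ndufa4l2 as the called exceptions, and in FAPs they centre on -0.61, while the 13 mitochondrial genes lie around the dashed median of all genes.

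The mitochondrial genes changed unevenly in the same cells. In control satellite cells 9 of 13 fell and none was called higher (median -0.74), where 29.8% of all genes tested were called lower. With BAT 4 of 13 fell (median -0.23), where 24.4% of all genes did, so that count was not far from the share of all genes. On plain totals the controls had 7 lower and 1 higher with a median of -0.38, and the BAT cells 2 lower and 1 higher with a median of 0.04, so the sign of the BAT median turned. Relative to the median gene the medians were -0.78 (TMM) and -0.76 (plain totals) in controls, and -0.34 and -0.32 with BAT. Without the macrophage-rich BAT satellite cell library, 7 of 13 were called lower with BAT.

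mt-Nd3, a complex I core subunit, had the largest change of the 13, with -1.68 ± 0.19 in controls and -1.09 ± 0.20 with BAT. mt-Nd1, which forms part of the ubiquinone site, was at 3782, 4136, 3274 and 3049 CPM in day 3 controls and 1922, 1780.4, 2210.3 and 1711 CPM in day 7 controls (-1.27 ± 0.16, edgeR adjusted p = 0.000122). All day 3 values were above all day 7 values. mt-Nd4, a proton-pumping subunit, was at 907, 922, 809.8 and 698 CPM at day 3 and 1078, 1087, 1239 and 981 CPM at day 7 and was not called (0.03 ± 0.15, adjusted p = 0.872). Its day 7 libraries all lay above its day 3 libraries as shares of the library. The 9 genes that fell in controls are, in their order along the molecule, mt-Nd1, mt-Nd2, mt-Co1, mt-Co2, mt-Atp8, mt-Atp6, mt-Co3, mt-Nd3 and mt-Nd4l, which stand next to each other, and the 4 not called, mt-Nd4, mt-Nd5, mt-Nd6 and mt-Cytb, follow them (-0.17 ± 0.15, -0.15 ± 0.20 and -0.46 ± 0.19 for the last 3). With BAT the 4 called lower were mt-Nd1, mt-Co2, mt-Atp8 and mt-Nd3. They did not form 1 run, since mt-Nd2, mt-Co1, mt-Atp6 and mt-Co3 lie between them and were not called. mt-Nd6, on the opposite strand, did not stand apart from its neighbours in control satellite cells. Whether reads were counted by strand is not given, so RNA of the other strand may be among its counts.

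**Figure D4:**
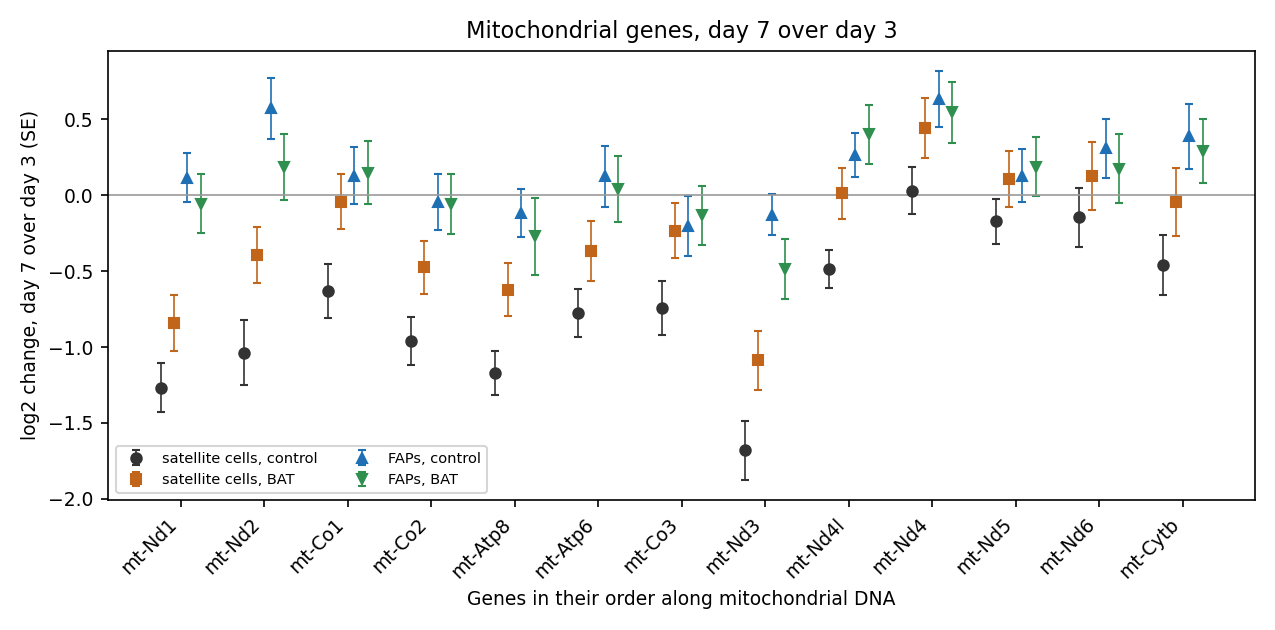
Log2 change on the TMM scale from day 3 to day 7 with its SE (y axis) of the 13 mitochondrial genes in their order along the molecule (x axis), for satellite cells and FAPs, control and BAT. In control satellite cells values run from -1.68 (mt-Nd3) to 0.03 (mt-Nd4), and the FAP values from -0.49 to 0.63; on plain totals the median in BAT satellite cells turns from -0.23 to 0.04.

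Some neighbours on this genome share bases, which bears on how far their values are separate measurements. mt-Atp8 and mt-Atp6, both of complex V, overlap by 43 bases at chrM:7927-7969 on the plus strand (GRCm38, GENCODE M21), within the coding exons of both. The overlap is shown because a read inside it fits both genes, with capitals for the start codon of mt-Atp6 and the stop codon of mt-Atp8.
mt-Atp8 and mt-Atp6 overlap: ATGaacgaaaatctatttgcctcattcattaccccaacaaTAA
mt-Nd4l and mt-Nd4 also overlap, as do mt-Nd5 and mt-Nd6 on opposite strands. How the authors counted such reads, and reads that also match nuclear copies of mitochondrial DNA, is not given in the sources used here, so values of these neighbours are uncertain as single measurements. The same holds for nuclear members with near-identical copies, such as Cox5b and Cox5b-ps.

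In FAPs most nuclear subunits fell as well, with a smaller median, and the mitochondrial genes did not follow. In controls 54 of 78 nuclear members were called lower and 0 higher, where 11.4% and 11.5% of all genes were, and with BAT 64 lower and 1 higher, where 12.6% and 10.3% were. The nuclear medians were -0.61 and -0.71, against 0.09 and 0.04 for all genes. The count in controls was 30 without day 3 replicate 2 and 31 without day 3 replicate 3, and that with BAT was 40 without day 7 replicate 1. The largest falls in controls were Ndufa4 (-1.33 ± 0.23), Atp5g1 (-1.02 ± 0.13), Atp5g2, the third gene for the c subunit (-0.98 ± 0.20), Cox7b, a small complex IV subunit (-0.90 ± 0.18), and Atp5g3 (-0.89 ± 0.13). With BAT they were Ndufa4 (-1.26 ± 0.24), Atp5g1 (-1.07 ± 0.13), Atp5mpl of complex V (-1.05 ± 0.19), Cox7b (-0.97 ± 0.18) and Uqcr11 of complex III (-0.97 ± 0.13). Of the reference subunits, Ndufs1 (-0.52 ± 0.15) and Cox5a (-0.72 ± 0.14) fell in controls, and Ndufs1 (-0.63 ± 0.18), Sdha (-0.46 ± 0.15), Cox5a (-0.80 ± 0.12) and Atp5b (-0.75 ± 0.24) with BAT. Atp5g1 was at 66.7, 65.7, 59.1 and 67.7 CPM in day 3 control FAPs and 30.5, 23.0, 35.4 and 34.3 CPM at day 7, with no overlap. Cell cycle markers summed to 889 to 1254 CPM at day 3 and 236 to 587 CPM at day 7 in these control cells, with 15 of 16 lower. Muscle fibre markers went from 3.34 to 6.17 to 55.5 to 169 CPM in sum (6 of 7 tested higher, of 11 listed, with Myh2 and Myh4 at 0 at day 3 and Myh7 at day 7) and erythroid markers from 4.40 to 11.5 to 30.7 to 89.1 CPM (5 of 5 tested higher, of 6 listed). With BAT 16 of 16 cell cycle markers were lower, 2 of 5 fibre markers tested higher and 0 of 4 erythroid markers tested called. The part of these markers was not tested.

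In complex IV of FAPs, 10 of 11 nuclear subunits were lower in controls and 10 of 11 with BAT (medians -0.82 and -0.83). In complex I 25 and 30 of 36 fell, in complex II 3 and 4 of 4, in complex III 5 and 5 of 8, and in complex V 11 and 15 of 17. Of the mitochondrial genes only mt-Nd4 was called in controls, from 507, 517, 615 and 505 CPM to 1011, 569.5, 686 and 966 CPM (0.63 ± 0.18, edgeR adjusted p = 0.0322), and its day 3 and day 7 libraries overlap. That call was lost on plain totals, without any single day 3 library, and without day 7 replicate 1 or 4, and 3 and 2 genes were called higher without day 7 replicates 2 and 3. With BAT none of the 13 was called (edgeR), at a median of 0.15, with 2 of 13 at an unadjusted p under 0.05 and 1 called by DESeq2. Without the macrophage-rich BAT FAP library, 1 mitochondrial gene was called lower and the median was -0.01.

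Whether the courses differed between the cell types was tested as the satellite cell change minus the FAP change. In controls 9 of 13 mitochondrial and 37 of 79 nuclear members were called lower, that is with a deeper fall or smaller rise in satellite cells, and 1 was higher, against 8.39% and 15.4% of all genes. With BAT 2 mitochondrial and 22 nuclear members were lower and 3 nuclear members higher, against 7.28% and 10.6%. Of all calls, 64.8% (controls) and 59.4% (BAT) were higher with TMM, and 86.5% and 88.0% on plain totals. The members' counts depend on the scale too: on plain totals 4 mitochondrial and 12 nuclear members were lower in controls and 0 and 5 with BAT, and the nuclear median with BAT turned from -0.32 to 0.01. Relative to the median gene, the mitochondrial medians were -0.78 (controls) and -0.46 (BAT) and the nuclear ones -0.55 and -0.36 on both scales. mt-Nd2 (-1.40 ± 0.31), mt-Nd3 (-1.38 ± 0.23), mt-Nd1 (-1.23 ± 0.17), Sdhd (-0.93 ± 0.15) and Uqcr10 (-0.92 ± 0.14) had the largest negative differences in controls, and Ndufa4l2 the only positive one called (3.72 ± 0.60). Further calls among the genes followed throughout were mt-Co1 (-0.62 ± 0.18), mt-Cytb (-0.66 ± 0.20), mt-Atp6 (-0.75 ± 0.21), Uqcrfs1 (-0.69 ± 0.13) and Cox5a (-0.59 ± 0.13). With BAT the most negative were Atp5g1 (-0.91 ± 0.16), Ndufs7, a core subunit of complex I (-0.83 ± 0.17), mt-Nd1 (-0.83 ± 0.17), Sdhd (-0.75 ± 0.15) and Uqcrc1, a core protein of complex III (-0.74 ± 0.15), and Cox5a was called as well (-0.58 ± 0.13). The positive ones were Ndufa4l2 (3.47 ± 0.44), Cox6a2 (1.93 ± 0.54) and Ndufv3 (0.66 ± 0.18). Cox6a2 did not pass the filter for the change between days within FAPs. It entered this test through the satellite cells, where it is higher, so its call says little about a course in FAPs. The control count of 9 mitochondrial genes was 5 without either of 2 day 3 mice, those of satellite cell replicates 4 and 2. With BAT the 22 nuclear calls were 9 to 14 without 4 of the mice: satellite cell replicates 1 (11) and 2 (12) of day 3, and 1 (9) and 2 (14) of day 7.

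Set against FAPs of the same mouse at day 3, satellite cells were higher in nearly every member of both genomes. In controls 13 of 13 mitochondrial and 74 of 79 nuclear members were called higher and 2 nuclear members lower, against 35.8% and 35.9% of all genes. The medians were 0.86 and 1.06, and 0.03 over all genes. With BAT the counts were 13 of 13 and 73 of 78 higher and 2 lower (31.1% and 35.4% of all genes), with medians of 0.70 and 0.98. In each of the 4 mice, under both treatments, the median difference was above 0 for both genomes. The nuclear medians by complex in controls were 0.91 (I), 0.86 (II), 1.35 (III), 1.16 (IV) and 1.15 (V). Uqcrfs1 was at 415, 449, 372 and 393 CPM in control satellite cells and 109, 107, 99.99 and 108 CPM in control FAPs (1.82 ± 0.09, edgeR adjusted p = 5.92e-06), the largest positive difference after that of Cox6a2. Cox5a was at 409, 369, 412 and 426 and 112, 109, 89.0 and 118 CPM (1.80 ± 0.08). Neither gene had overlapping groups. These values are in order of replicate, and the same place in both lists is not the same mouse. Next came Atp5g3 (1.80 ± 0.09) and Atp5g1 (1.75 ± 0.09). Reference subunits of the other complexes were Ndufs1 at 1.20 ± 0.11, Sdha at 0.60 ± 0.10 and Atp5b at 1.34 ± 0.08, and the mitochondrial mt-Nd1 at 1.63 ± 0.08, mt-Co1 at 0.66 ± 0.09, mt-Cytb at 0.86 ± 0.08, mt-Atp6 at 0.99 ± 0.07 and mt-Nd6 at 0.60 ± 0.11. With BAT the largest were Atp5g3 (1.65 ± 0.09), Uqcr10 (1.64 ± 0.09), Uqcrfs1 (1.63 ± 0.09), Atp5g1 (1.61 ± 0.09) and Atp5k (1.57 ± 0.09), with Ndufs1 at 1.06 ± 0.10, Sdha at 0.53 ± 0.09, Cox5a at 1.56 ± 0.09, Atp5b at 1.04 ± 0.14 and mt-Nd1 at 1.39 ± 0.09. The exceptions in both treatments were Ndufv3, an accessory complex I subunit, lower in satellite cells (-0.83 ± 0.10 and -0.94 ± 0.11), and Ndufa4l2. Ndufa1, Ndufa3 and Cox6b2 were not called in either. Dropping the mouse as a block left 8 of 13 mitochondrial genes called with BAT. Cell cycle markers, at 2764 to 3204 CPM in sum in control satellite cells and 889 to 1254 CPM in control FAPs, were higher in satellite cells in 16 of 16 cases in controls and 16 of 16 with BAT (medians 1.26 and 1.15). Their part was not tested.

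At day 7 most nuclear members were again higher in satellite cells, while the size of that difference and the mitochondrial calls depended on the scale. In controls 59 of 79 nuclear members were higher and 1 lower (22.5% and 22.6% of all genes), and with BAT 66 and 1 (24.5% and 25.3%). The nuclear medians were 0.61 and 0.67. On plain totals they were 1.03 and 1.11, with 74 and 76 nuclear members called higher, close to the 1.18 and 1.17 of day 3 on that scale. Relative to the median gene the nuclear members lay 0.56 and 0.64 above it on both scales at day 7, against 1.03 and 1.01 at day 3. Of the mitochondrial genes 0 of 13 were called in controls (edgeR, with 1 at an unadjusted p under 0.05 and 0 called by DESeq2) and 10 with BAT, at medians of 0.20 and 0.48. On plain totals 10 of 13 were called higher in controls and 13 with BAT, with medians of 0.62 and 0.92, while calls higher made up 73.6% of all calls with BAT in place of 49.2%. The mitochondrial medians lay 0.15 and 0.45 above the median gene on both scales. In day 7 controls the mice differed: the median over the 13 genes was 0.07, -0.32, 0.60 and 0.50 in the mice of replicates 4, 1, 2 and 3. With BAT it was 0.67, 0.50, 0.23 and 0.54. The BAT count was 5 without the mouse of replicate 4 or that of replicate 1, and 5 without the mouse as a block. Cell cycle markers summed to 1793 to 2667 CPM in control satellite cells and 236 to 587 CPM in control FAPs at day 7, with 16 of 16 higher in satellite cells in controls and 16 of 16 with BAT (medians 2.46 and 2.17), and their part was not tested.

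By complex, all 7 nuclear core subunits of complex I were higher in satellite cells at day 7 under both treatments (medians 0.73 and 0.80), against 15 and 21 of 29 accessory ones. In complex II 4 of 4 were higher in both, in complex III 7 of 8 in both, in complex IV 10 of 12 in both and in complex V 16 of 17 in both. After Cox6a2 the largest in controls were Cox6b2 (1.20 ± 0.27), Cox5a (1.20 ± 0.12), Ndufa12, an accessory complex I subunit (1.14 ± 0.13), and Uqcrfs1 (1.11 ± 0.12). With BAT they were Ndufa12 (1.26 ± 0.14), Ndufs1 (1.22 ± 0.11), Uqcrfs1 (1.18 ± 0.15) and Cox6b2 (1.16 ± 0.24). Ndufs1 was at 176, 138, 194 and 189 CPM in BAT satellite cells and 62.0, 34.5, 68.7 and 60.4 CPM in BAT FAPs, without overlap. In controls Ndufs1 had 1.00 ± 0.11, Sdha 0.75 ± 0.15 and Atp5b 1.07 ± 0.16, and with BAT Cox5a had 1.05 ± 0.11, Sdha 0.46 ± 0.12, Atp5b 1.08 ± 0.17, mt-Nd1 0.64 ± 0.16, mt-Cytb 0.41 ± 0.12, mt-Atp6 0.55 ± 0.14 and mt-Nd6 0.53 ± 0.12.

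The graft was followed by no called change in any member. BAT against control called 0 of 92 members in satellite cells at day 3 and at day 7, 0 of 91 in FAPs at day 3 and 0 of 92 in FAPs at day 7 by edgeR, and 0 by DESeq2 in all 4. Of all genes tested 0.0%, 0.0178%, 0.0188% and 0.0% were called, so few calls were made anywhere. At an unadjusted p under 0.05 there were 2, 12, 0 and 1 members by edgeR and 4, 12, 0 and 0 by DESeq2. The nuclear medians were -0.05, 0.06, -0.01 and -0.07, and the mitochondrial ones -0.12, 0.27, -0.01 and -0.03, in the same order. Differences of the BAT effect between days (satellite cells, FAPs) and between cell types (day 3, day 7) called 0 of 92 members each by edgeR and by DESeq2, with 0.0%, 0.0%, 0.0229% and 0.0% of all genes called and 11, 0, 0 and 4 members at an unadjusted p under 0.05 by edgeR.

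In day 7 satellite cells all 13 mitochondrial genes were fitted above 0, none of them called. The members with the smallest p were Cox6a2 (-0.65 ± 0.16, edgeR adjusted p = 0.605), mt-Nd2 (0.43 ± 0.11, adjusted p = 0.626) and mt-Co1 (0.37 ± 0.11, adjusted p = 0.626). mt-Co1, the catalytic subunit of cytochrome c oxidase, was at 4266, 5449.8, 5931 and 4982 CPM in controls and 6706, 6127, 7087 and 6218 CPM with BAT, higher with BAT in all 4 mice. Each BAT library was above each control library. Cox6a2 was at 13.2, 20.1, 13.5 and 23.2 CPM in controls and 7.76, 9.71, 8.83 and 19.4 CPM with BAT, lower in all 4 mice although the groups overlap. With no filter on low counts, these 3 genes and Ndufa4l2 had an adjusted p under 0.05 (0.51 ± 0.23 for Ndufa4l2 with the filter). The median over the 13 mitochondrial genes was 0.36, 0.40, -0.01 and 0.30 in the mice of replicates 4, 1, 2 and 3, while the nuclear median was 0.24, -0.10, 0.02 and 0.04. The log2 ratio of the genomes was higher with BAT in 4 of 4 mice (0.25 ± 0.16, SD), by 0.09 to 0.48, and lower with BAT in 4 of 4 mice at day 3 (-0.08 ± 0.08). The day 3 differences ran from -0.20 to -0.03, and the largest was in the mouse of the macrophage-rich BAT library. Without the macrophage-rich libraries the day 3 means were 0.35 with BAT and 0.34 in controls (n = 3 each, of partly different mice), so the day 3 direction was not kept. In FAPs the ratio was higher with BAT in 2 of 4 mice on both days. Muscle fibre markers, a list of 11 with none at 0 in either group, summed to 2447 to 5414 CPM in the day 7 controls. With BAT they summed to 1309 to 3561 CPM. Of 10 tested, 2 were called lower (edgeR, median -0.68), where 3 of all 16868 genes tested were called. The part of these markers in the differences above was not tested. The 7 brown adipocyte markers summed to 27.5 to 35.6 and 24.2 to 30.2 CPM there, most of it Dio2 (means of 25.9 and 22.5 CPM) and Elovl3 (2.53 and 3.08 CPM). The defining marker Ucp1, and Adipoq, were at 0 in all 4 control libraries and in 3 of the 4 with BAT, and at 0.436 and 0.131 CPM in BAT replicate 1.

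In the other comparisons, at edgeR adjusted p of 0.953 or more, the members with the smallest p were mt-Nd4l (-0.24 ± 0.08), Cox5a (-0.16 ± 0.06) and Cox5b-ps (-0.20 ± 0.09) in day 3 satellite cells. In FAPs they were Atp5a1 (0.27 ± 0.17), Ndufa12 (0.14 ± 0.09) and Ndufa6 (-0.14 ± 0.09) at day 3, and Ndufa6 (-0.24 ± 0.10), Ndufa5 (-0.21 ± 0.10) and Uqcr10 (-0.18 ± 0.09) at day 7. For the differences of the BAT effect between days in satellite cells they were Uqcrc1 (-0.52 ± 0.12), mt-Co2 (0.40 ± 0.12) and mt-Co1 (0.52 ± 0.16), and between the cell types at day 7 Uqcrc1 (-0.47 ± 0.14), mt-Nd2 (0.61 ± 0.19) and mt-Nd3 (0.49 ± 0.19), at adjusted p of 0.698 to 0.904. The adjusted test tells none of these values apart from 0.

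A few paralogues that replace a common subunit in certain tissues ran against the rest. Cox6a2 is the heart and skeletal muscle form of a complex IV subunit whose common form is Cox6a1. Cox6a2 was at 0.758, 1.55, 0.555 and 0.548 CPM in day 3 control satellite cells and 13.2, 20.1, 13.5 and 23.2 CPM at day 7 (3.92 ± 0.40, edgeR adjusted p = 3.34e-05). With BAT it was at 1.88, 0.99, 0.253 and 0.969 CPM and 7.76, 9.71, 8.83 and 19.4 CPM (3.16 ± 0.52). In FAPs no library exceeded 0.720 CPM, and at day 3 Cox6a2 did not pass the filter on low counts within FAPs. The day 3 difference between the cell types and the difference of courses were therefore tested only through the satellite cells, where the gene is higher. The days did not overlap in satellite cells, and the satellite cell minus FAP log2 difference was 3.22 ± 0.54 at day 3 and 4.81 ± 0.30 at day 7 in controls and 4.44 ± 0.31 at day 7 with BAT. Cox6a1 fell over the same days, from 601 ± 34.1 to 276 ± 25.5 CPM (SD, n = 4) in control satellite cells and from 342 ± 23.2 to 183 ± 18.9 CPM in control FAPs. Muscle fibre markers, whose day 3 and day 7 sums are given above, moved in the same direction as Cox6a2. The part of fibre RNA in these values was not tested.

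Cox6b2, a form of Cox6b1 known from testis, was at 2.16, 2.11, 1.31 and 1.87 CPM in day 3 and 6.75, 7.32, 3.41 and 6.47 CPM in day 7 control satellite cells (1.32 ± 0.31, adjusted p = 0.00402), and at 1.32 ± 0.453 and 1.90 ± 0.352 CPM in control FAPs. Its satellite cell groups did not overlap. Cox6b1 was at 479 ± 71.0 and 249.6 ± 35.2 CPM in the same satellite cells and at 216 ± 18.6 and 118 ± 19.4 CPM in the FAPs. In BAT FAPs Cox6b2 was the one nuclear member called higher at day 7 (0.96 ± 0.30, adjusted p = 0.0445), a call lost without any of 7 of the 8 libraries (all but day 7 replicate 3), on plain totals and with no filter.

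Ndufa4l2 is a hypoxia-inducible relative of Ndufa4. It was at 11.6, 6.79, 9.98 and 1.14 CPM in day 3 control satellite cells, 60.0, 232, 47.6 and 51.2 CPM in day 7 control satellite cells, 182, 299.6, 161 and 129.5 CPM in day 3 control FAPs and 133, 270.4, 76.0 and 136 CPM in day 7 control FAPs. Satellite cells at day 3 were below every other control group without overlap, and replicate 2 was highest in the other 3 groups. The log2 change in satellite cells was 3.39 ± 0.74 (adjusted p = 0.00279) in controls and 2.92 ± 0.49 with BAT. The satellite cell minus FAP difference was -4.97 ± 0.51 at day 3 and -1.28 ± 0.19 at day 7 in controls, and -4.31 ± 0.36 and -0.75 ± 0.18 with BAT. The difference of the courses was 3.72 ± 0.60 (adjusted p = 0.00239) and 3.47 ± 0.44. Ndufa4 itself was at 446 ± 88.2, 155 ± 31.9, 197 ± 13.8 and 76.6 ± 26.8 CPM in the same 4 control groups. Ndufv3 was the further member called higher with BAT from day 3 to day 7 in satellite cells (0.37 ± 0.14, adjusted p = 0.047). Cox7a2l, which helps respiratory complexes join into supercomplexes, was not called in either treatment (-0.14 ± 0.17 and 0.14 ± 0.19).

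**Figure D5:**
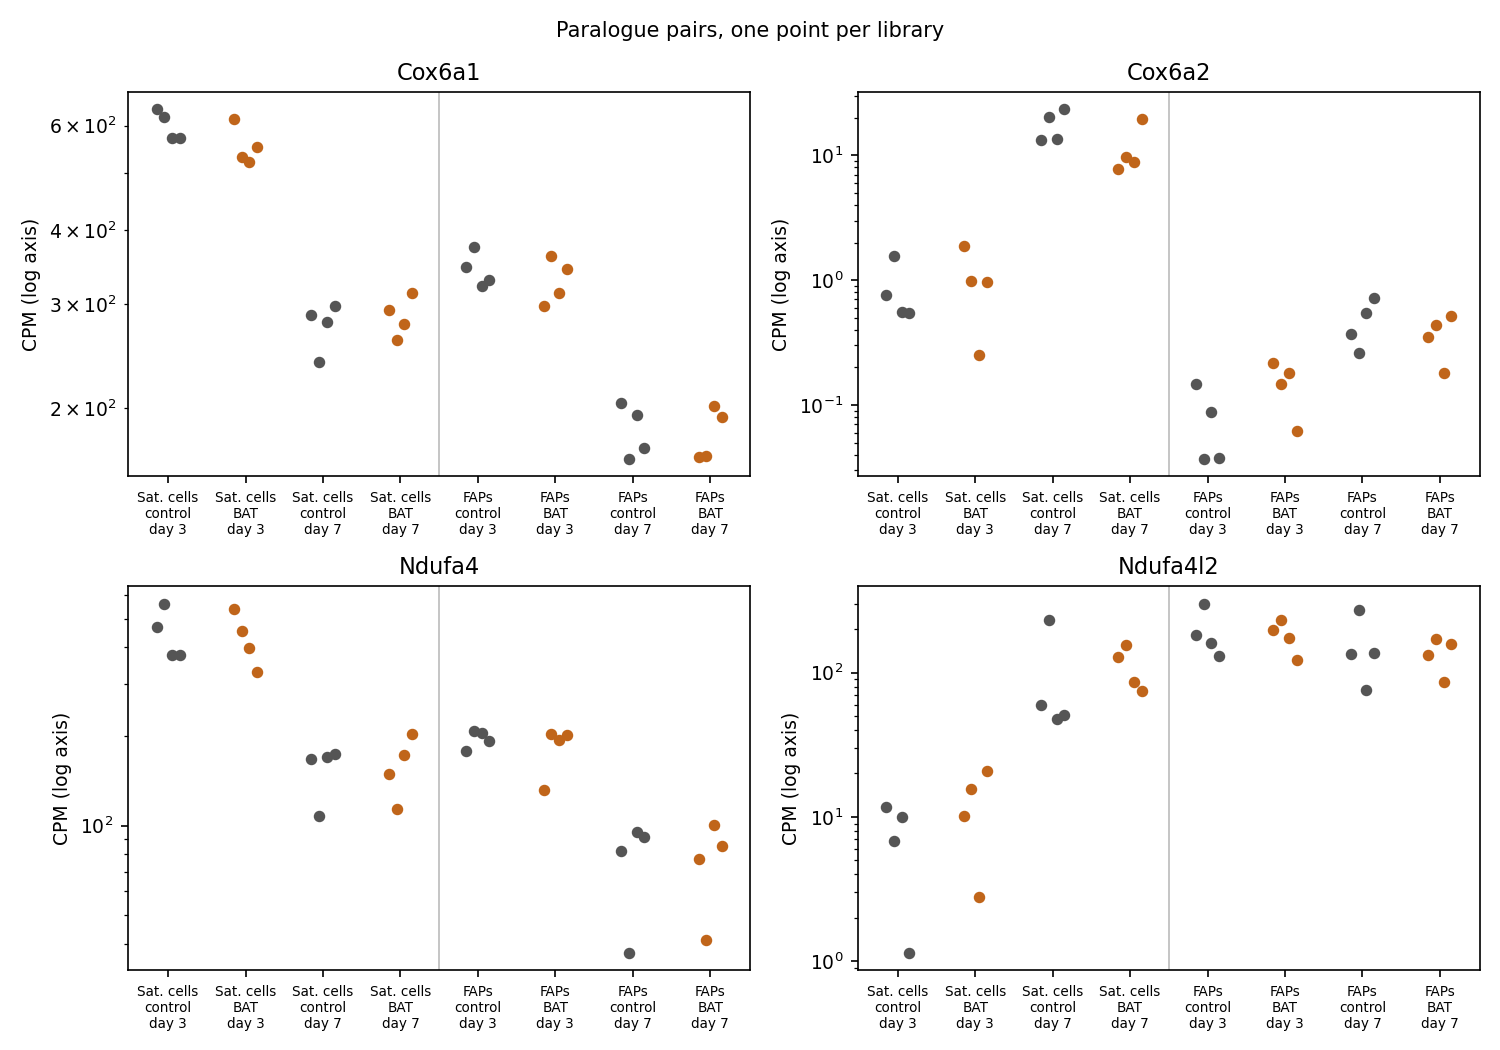
CPM on a log axis of the common subunits Cox6a1 and Ndufa4 (left) and their paralogues Cox6a2 and Ndufa4l2 (right), 1 point per library, grey for control and orange for BAT. In satellite cells both paralogues are higher at day 7 while both common forms are lower.

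The windows at the transcription starts of the nuclear members, most of which changed in the same direction, were searched for words of 4 factors known to act at nuclear respiratory genes. RefSeq gave 70 windows (250 bases before to 50 after the start, GRCm38.p6) for 65 of the 81 nuclear members. The NRF1-type word GCGCATGC or its reverse GCATGCGC was in 10 of the 70 (14.3%), against 2.71% of all 32851 windows. The ETS-type word CCGGAAG or CTTCCGG was in 16 (22.9% against 8.86%), the YY1-type word AAGATGGC or GCCATCTT in 10 (14.3% against 2.75%) and the ESRRA-type word AAGGTCA or TGACCTT in 8 (11.4% against 4.72%). At least 1 of the 4 was in 34 windows (48.6% against 17.6%). The NRF1-type word and its reverse overlap each other in a palindrome, and a match is a run of letters, not evidence of binding.

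The 250 bases before the start are shown for 4 members: Sdhd, Atp5k and Atp5g1, which are among the largest falls in satellite cells, and Cox6a1, the common partner of Cox6a2. Capitals mark words found.
Sdhd: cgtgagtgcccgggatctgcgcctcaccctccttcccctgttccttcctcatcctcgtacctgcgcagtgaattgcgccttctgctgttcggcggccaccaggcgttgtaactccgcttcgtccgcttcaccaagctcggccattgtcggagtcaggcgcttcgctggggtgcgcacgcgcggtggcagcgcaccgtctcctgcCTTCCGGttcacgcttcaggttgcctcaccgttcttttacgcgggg
Atp5k: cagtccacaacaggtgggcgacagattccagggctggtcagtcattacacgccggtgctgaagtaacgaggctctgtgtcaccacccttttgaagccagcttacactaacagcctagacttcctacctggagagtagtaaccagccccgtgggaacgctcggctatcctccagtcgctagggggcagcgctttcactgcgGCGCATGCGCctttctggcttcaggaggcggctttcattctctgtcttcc
Cox6a1: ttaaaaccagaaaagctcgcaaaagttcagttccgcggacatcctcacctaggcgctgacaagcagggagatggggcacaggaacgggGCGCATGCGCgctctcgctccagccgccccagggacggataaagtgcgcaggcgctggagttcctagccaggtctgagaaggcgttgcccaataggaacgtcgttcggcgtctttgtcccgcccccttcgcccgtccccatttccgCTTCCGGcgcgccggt
Atp5g1: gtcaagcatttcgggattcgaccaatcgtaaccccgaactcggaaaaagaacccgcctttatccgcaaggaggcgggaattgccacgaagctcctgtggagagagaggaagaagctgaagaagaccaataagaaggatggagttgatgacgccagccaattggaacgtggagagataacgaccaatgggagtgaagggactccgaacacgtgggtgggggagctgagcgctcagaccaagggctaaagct
Sdhd (chr9:50603850-50604099, minus strand) has the ETS-type word starting 46 bases before the start. Atp5k (chr5:108434400-108434649, minus strand) has the NRF1-type palindrome 50 bases before it. Cox6a1 (chr5:115348959-115349208, minus strand) has the palindrome at 162 bases and an ETS-type word at 16 bases before it. Atp5g1 (chr11:96075632-96075881, minus strand), which had the largest fall, holds none of these letters in this window. The windows counted above run past the start, and reaching into that stretch Atp5k also holds an ETS-type and an ESRRA-type word and Sdhd an ESRRA-type word.

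Other genes of the pathway changed with the nuclear members. Among 7 subunits outside the symbol rule, 5 fell and 2 rose from day 3 to day 7 in control satellite cells. Over all genes tested, 29.8% fell and 29.7% rose in these cells (median 0.03), and 11.4% fell and 11.5% rose in control FAPs (median 0.09). Cycs, which encodes cytochrome c, was at 315, 393, 266 and 272 CPM at day 3 and 82.0, 79.7, 118 and 94.9 CPM at day 7 (-2.11 ± 0.19), with no overlap. Cox4i1, the common form of subunit 4 of complex IV, was at 1347 ± 106 and 925 ± 118 CPM (-0.91 ± 0.13). The 2 that rose were Cox8b, a muscle and brown fat form (4.03 ± 0.52), and Cox4i2, an oxygen-regulated form (3.75 ± 0.66). In control FAPs Cycs (-0.79 ± 0.13) and Ndufab1, the acyl carrier protein of complex I (-0.43 ± 0.14), fell, and none of 6 tested was called higher.

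Assembly factors fell in 40 of 47 cases in control satellite cells, where 29.8% of all genes did (median -0.91), led by Ndufaf4 (-1.75 ± 0.15), the copper chaperone Cox17 (-1.74 ± 0.15) and Ndufaf5 (-1.72 ± 0.19), and 11 of 47 did in control FAPs, where 11.4% of all genes did, led by Cox17 (-1.11 ± 0.18), Nubpl (-1.10 ± 0.28) and Cmc2 (-0.95 ± 0.18). Genes for the upkeep and expression of mitochondrial DNA fell in 19 of 27 cases and rose in 1 in control satellite cells, and fell in 5 of 27 in control FAPs (29.8%, 29.7% and 11.4% of all genes), the last count not far from the share of all genes. Fastkd2 (-1.78 ± 0.18), Ssbp1 (-1.64 ± 0.17) and Slirp (-1.30 ± 0.18) fell most in satellite cells. Tfam, which packs mitochondrial DNA and starts its transcription, was at 84.4, 88.2, 75.9 and 82.5 CPM at day 3 and 54.2, 38.2, 56.5 and 51.4 CPM at day 7 there (-1.09 ± 0.13), and at 32.2 ± 1.81 and 23.7 ± 2.44 CPM in control FAPs (-0.38 ± 0.13). Its days did not overlap in satellite cells. Genes of the citric acid cycle fell in 15 of 18 cases in control satellite cells, led by Idh3a (-1.65 ± 0.12), Suclg1 (-1.38 ± 0.14) and Mdh2 (-1.29 ± 0.10), and in 7 of 18 in control FAPs (29.8% and 11.4% of all genes).

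Genes for proteins of the mitochondrial ribosome, which translates the 13 mitochondrial messages, were called lower in 77 of 78 cases in control satellite cells (median -1.22) and in 46 of 78 in control FAPs (-0.54), where 29.8% and 11.4% of all genes were, at medians of 0.03 and 0.09. Of 13 regulators of mitochondrial content tested in control satellite cells 3 rose and 3 fell, each a smaller share than the 29.7% and 29.8% of all genes. Perm1, a muscle regulator of oxidative metabolism, rose by 3.70 ± 0.52, and the nuclear receptor genes Ppara and Ppard by 1.67 ± 0.50 and 1.42 ± 0.38 on the log2 scale. Ppargc1a, the PGC-1alpha coactivator, was at 4.24, 3.69, 3.13 and 4.57 CPM at day 3 and 4.60, 7.03, 2.89 and 4.09 CPM at day 7 in control satellite cells and was not called (-0.09 ± 0.30), while in control FAPs it was at 0.935 ± 0.175 and 2.47 ± 0.586 CPM and rose (1.48 ± 0.35, edgeR adjusted p = 0.0134), which it was not called to do with BAT (adjusted p = 0.403). Its relative Ppargc1b was at 28.7, 29.0, 46.2 and 58.2 CPM in day 3 control satellite cells and 1.49, 0.818, 0.662 and 1.89 CPM in day 3 control FAPs (4.97 ± 0.16). No FAP library reached the lowest satellite cell library. Nrf1, the factor that gives the NRF1-type word its name, was at 67.8 ± 6.44 and 69.3 ± 3.08 CPM in control satellite cells (-0.32 ± 0.09, called lower) and at 37.4 ± 6.60 and 35.0 ± 2.40 CPM in control FAPs (-0.03 ± 0.15, not called). As shares of the library its satellite cell means differed by less than 1 SD. In day 3 controls 33 of 47 assembly factors, 21 of 27 genes of mitochondrial DNA and 16 of 18 of the citric acid cycle were higher in satellite cells than in FAPs, where 35.8% of all genes were. In day 7 controls the counts were 13, 14 and 14, where 22.5% of all genes were higher, so that the assembly factors lay near that share.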

How the data were processed

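The deposited day 3 and day 7 tables hold expected counts per gene for 32 libraries, not normalised. The authors' processing notes name DRAGEN and mm10, per the submitters' processing notes. How reads were counted, whether by strand, and with which annotation and versions is not given in the sources used here. Per the labels, 10 ng of total RNA per library was amplified with a SMARTer Ultra Low kit. Each table lists 55774 entries, of which 287 repeats of an identifier were dropped, leaving 55487 genes. Of the values above 0, 71.3% (day 3) and 72.2% (day 7) were whole. Rounding to whole counts moved each library total by at most 0.000343%.

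Tests were those of edgeR 4.0.16 (R 4.3.3) with the quasi-likelihood F test on TMM-scaled totals after filterByExpr (minimum count 10, minimum total 15), with Benjamini-Hochberg adjustment over all genes tested and a threshold of 0.05. Comparisons within a day had the mouse as a block and used the libraries of both groups compared. Comparisons between days are unpaired, since each mouse was sampled once, and day goes with mouse and with deposited table. Mouse codes come from the sample titles. At day 3, satellite cell replicates 1, 2, 3 and 4 are of the mice of FAP replicates 2, 3, 4 and 1. On day 3, 1 mouse has no code, and its libraries were joined as the uncoded ones. Libraries of a mouse share an animal, so the block stands whatever their correlation. The mean correlation of their deviations was -0.13 (satellite cells, day 3), 0.44 (satellite cells, day 7), 0.12 (FAPs, day 3) and 0.51 (FAPs, day 7). No 2 libraries of a group looked like 1 library deposited repeatedly (smallest chi-square per degree of freedom 17.1). The p-values treat the mice as the replicates, except for the difference of the BAT effect between cell types. That test treats the cell types of a mouse as separate units.

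Members and gene lists were chosen with earlier results of these data known. Genes named are, in each comparison, the 5 higher and 5 lower called members with the largest change, or the 3 with the smallest p where fewer than 2 passed, plus 5 mitochondrial genes and 1 nuclear subunit per complex wherever called, paralogue pairs and, per list, the 3 called genes with the largest change. mt-Nd3, mt-Nd4 and the other mitochondrial genes, Cox7b, Ndufv3 and Cox7a2l in satellite cells were named after their values were seen where they fall outside this. Alternatives were DESeq2 1.42.0, RLE scaling, totals without the mitochondrial members, no filter, no mouse block, each mouse or library left out, the macrophage-rich libraries left out and, chosen after seeing the data, library totals without TMM. The procedure was tested on simulated data. Lengths are exon unions of GENCODE M21 (GRCm38).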

Additional observations from a re-analysis of the deposited data

Results flagged for a closer look

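In 24 groups of 4 values (3 quantities in 8 groups), 2 held a value far from the other 3, and chance gives about 1 in 20. The summed nuclear CPM of control FAPs at day 7 was 6022 in replicate 2, below the other 3 libraries. Replicate 2, always of the same mouse at day 7, was also lowest in the other day 7 groups. It had 12556.5 CPM in control satellite cells, 12692.5 CPM in BAT satellite cells and 5939 CPM in BAT FAPs, so the low value is not particular to that library. The log2 ratio of mitochondrial to nuclear counts in BAT satellite cells at day 7 was 0.87 in replicate 4, below the other 3. The test of the difference between the courses of satellite cells and FAPs called members in both treatments. In controls it called 9 of 13 mitochondrial and 37 of 79 nuclear members lower and 1 nuclear member higher. Of all genes, 8.39% were called lower and 15.4% higher there. With BAT it called 2 of 13 mitochondrial and 22 of 79 nuclear members lower and 3 nuclear members higher, against 7.28% and 10.6% of all genes. The counts higher lay below those shares. On plain totals 4 mitochondrial and 12 nuclear members were lower in controls and 0 and 5 with BAT, so these counts depend on the scale.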

How the results depend on the processing

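No called member changed sign under any alternative run. Single genes of the other lists, such as Nrf1, were not followed under the alternatives, so this does not cover them. Medians that changed sign on plain totals are given below. Leaving out 1 library or mouse, 8 other medians crossed 0. They ran from -0.134 to 0.035 and -0.0019 to 0.107 (nuclear, BAT against control, satellite cells, days 3 and 7), -0.100 to 0.088 and -0.138 to 0.063 (mitochondrial, FAPs, days 3 and 7), -0.040 to 0.0038 (nuclear, FAPs, day 3), -0.136 to 0.110 (mitochondrial, BAT effect between days, FAPs), -0.149 to 0.0055 (nuclear, BAT effect between cell types, day 3) and -0.011 to 0.268 (mitochondrial, day 7 against day 3, BAT FAPs, below 0 without day 3 replicate 1, which is macrophage-rich). Without the mouse as a block the mitochondrial median of BAT against control in day 3 FAPs was 0.0036. RLE scaling kept every count of called members within 1.5 times, as did totals without the mitochondrial members. DESeq2 called 2 nuclear members lower in satellite cells against FAPs in day 7 controls, 57 nuclear members lower for the difference of courses in controls, 6 mitochondrial members lower for that with BAT, and 2 (control) and 1 (BAT) mitochondrial members higher at day 7 in FAPs.

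With no filter on low counts, BAT against control in day 7 satellite cells called 2 mitochondrial members higher, 1 nuclear member higher and 1 lower, and the difference of the BAT effect between cell types at day 7 called 1 mitochondrial member higher. That setting also gave 5 mitochondrial members lower for the BAT difference of courses, and 1 (control) and 0 (BAT) nuclear members higher at day 7 in FAPs.

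Without the replicate block for the mouse, satellite cells against FAPs had 0 nuclear members lower in day 7 controls, 8 mitochondrial members higher at day 3 with BAT, and 5 mitochondrial higher and 0 nuclear lower at day 7 with BAT. The differences of courses then had 21 nuclear members lower in controls, and 0 mitochondrial lower, 1 nuclear higher and 4 nuclear lower with BAT. No other count moved past 1.5 times without the block.

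On library totals without TMM, 10 mitochondrial members were higher in satellite cells than FAPs in day 7 controls and 0 nuclear members were lower at day 7 with BAT. The differences of courses had 4 mitochondrial lower, 3 nuclear higher and 12 nuclear lower in controls, and 0 and 5 lower with BAT. From day 3 to day 7, 1 mitochondrial member was higher in satellite cells under each treatment, 2 were lower with BAT, and in FAPs 0 mitochondrial (control) and 0 nuclear (BAT) members were higher. Medians then moved to 1.03 (nuclear, satellite cells against FAPs, day 7 controls), 0.89 and 1.17 (mitochondrial and nuclear, day 3 BAT), 0.92 and 1.11 (day 7 BAT), -0.38 and -0.15 (courses, controls), -0.094 and 0.0054 (courses, BAT), -0.38 and -0.78 (day 7 against day 3, control satellite cells) and 0.041 and -0.75 (BAT satellite cells). TMM-scaled totals gave summed mitochondrial CPM of 21139 (control satellite cells, day 7), 25731 (BAT satellite cells, day 7) and 18720.0 (BAT FAPs, day 7), and summed nuclear CPM of 12372, 12713 and 7737 in these and 11986 and 12246 in control and BAT FAPs at day 3. The ratio of the genomes by median gene differed between days by 1.05, 1.28, 1.20 and 1.24 (satellite cells control and BAT, FAPs control and BAT), and between cell types by -0.39 in day 3 controls.

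Without the macrophage-rich libraries, 1 mitochondrial member was lower for the BAT difference of courses, 7 in BAT satellite cells and 1 in BAT FAPs at day 7, and 0 nuclear members were higher in BAT FAPs. Leaving out 1 library or mouse at a time gave the ranges that follow. In BAT FAPs 0 to 1 mitochondrial members were lower (1 without day 3 replicate 1), 0 to 1 nuclear members higher and 40 to 63 lower (40 without day 7 replicate 1). In control FAPs 0 to 3 mitochondrial members were higher (3 without day 7 replicate 2, 2 without replicate 3) and 30 to 57 nuclear members lower (30 and 31 without day 3 replicates 2 and 3). In BAT satellite cells 3 to 7 mitochondrial members were lower (7 without day 3 replicate 4). The difference of courses had 5 to 9 mitochondrial lower and 1 to 2 nuclear higher in controls, the 2 without the mouse of satellite cell replicate 2 at day 3. With BAT it had 1 to 3 mitochondrial lower, 1 to 3 nuclear higher and 9 to 21 nuclear lower. The single mitochondrial call was without the mouse of satellite cell replicate 2 or 4 at day 3, or 1 or 2 at day 7, and the single nuclear call higher without that of replicate 3 at day 3, or 1, 3 or 4 at day 7. Satellite cells against FAPs at day 7 with BAT had 5 to 10 mitochondrial higher (5 without replicate 1 or 4) and 1 to 2 nuclear lower (2 without replicate 3), and in controls 1 to 2 nuclear lower (2 without replicate 2 or 3). The median mitochondrial difference of the BAT effect between cell types at day 7 ran from 0.145 to 0.470, the highest without replicate 2. Depth limits Cox6a2 in FAPs and Cox7b2, which lay near the level that 0 counts allow. The cause of these shifts was not tested.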
